A study of Mus musculus with 12 samples.

Results

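The adipose progenitor and stromal markers examined here were 9 genes, Pdgfra, Pdgfrb, Dpp4, Pi16, Dlk1, Cd34, Thy1, Fap and Ly6a, among the 23474 genes of the deposited table of epididymal white adipose tissue (eWAT). They were chosen by name through their mouse Ensembl identifiers. All 9 were in the table. Every mouse was a male C57BL/6J, put on its diet at 5 weeks of age, kept on it for 12 weeks and sampled at 17 weeks. The ND group received a normal diet and the HFD group a high-fat diet. The GT group received the HFD with 0.25% (w/w) of an ethanol extract of green tea, and the TJ group the HFD with 3% (w/w) of Taeeumjowitang, a herbal formula. Each group had 10 mice and 3 libraries. Neither additive was given on a normal diet, and the GT and TJ groups were both compared with the same 3 HFD libraries.

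Between the adipocytes of white fat lies a stroma of fibroblast-like cells, some of which can divide and become new adipocytes. The platelet-derived growth factor (PDGF) receptors mark much of this stroma, with PDGFRα on progenitors and fibroblasts and PDGFRβ also on the mural cells of small vessels. Progenitors rich in DPP4 and PI16 lie in the interstitium around the fat lobules and can give rise to committed preadipocytes nearer to the vessels. CD34, SCA-1 (encoded by Ly6a) and CD90 (encoded by Thy1) are surface proteins used to sort these cells, but CD34 and SCA-1 are also made by endothelium, and CD90 and DPP4 also by T cells. In a whole piece of eWAT, fewer cells of a type and less RNA per cell cannot be told apart.

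On GRCm38 the members lie on 8 chromosomes, as GENCODE mouse release 21 places them. Pdgfra (ENSMUSG00000029231) spans chr5:75152292-75198215 on the plus strand. Cd34 (ENSMUSG00000016494) spans chr1:194938819-194961279, Pi16 (ENSMUSG00000024011) chr17:29317680-29330593, Dlk1 (ENSMUSG00000040856) chr12:109452823-109463336 and Thy1 (ENSMUSG00000032011) chr9:44043384-44048579, all on the plus strand. Dpp4 (ENSMUSG00000035000, chr2:62330073-62412231) and Fap (ENSMUSG00000000392, chr2:62500943-62574075) are both on the minus strand of chromosome 2, with 88711 bases between them. They encode related membrane serine proteases. Ly6a (ENSMUSG00000075602, chr15:74994877-74998031, minus strand) has a related gene, Ly6c1, 45986 bases away. Pdgfra, Dpp4, Pi16 and Cd34 each overlap an annotated gene on the opposite strand, and since no source used here states that strand was used, fragments of the overlapping parts are not certain to be theirs. The longest annotated transcripts run from 955 nt for Ly6a to 6834 nt for Pdgfra.

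Of the 9 members, 5 matched an entry in the RefSeq promoter table, namely Pdgfra, Cd34, Dpp4, Pi16 and Dlk1. The 250 bases before the RefSeq start are printed for Pdgfra and Cd34, the members called in both the GT and the TJ group below, and for Dpp4, which was called in neither. RefSeq starts need not coincide with the GENCODE starts above. On GRCm38.p6 the windows are chr5:75152001-75152250 (plus strand) for Pdgfra, chr1:194938571-194938820 (plus strand) for Cd34 and chr2:62412232-62412481 (minus strand) for Dpp4. Capitals mark a TATA box, searched as TATAAA on both strands.
Pdgfra: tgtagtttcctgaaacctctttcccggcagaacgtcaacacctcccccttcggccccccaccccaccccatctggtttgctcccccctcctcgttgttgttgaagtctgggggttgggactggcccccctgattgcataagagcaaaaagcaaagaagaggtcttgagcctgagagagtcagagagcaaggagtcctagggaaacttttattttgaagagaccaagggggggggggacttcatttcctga
Cd34: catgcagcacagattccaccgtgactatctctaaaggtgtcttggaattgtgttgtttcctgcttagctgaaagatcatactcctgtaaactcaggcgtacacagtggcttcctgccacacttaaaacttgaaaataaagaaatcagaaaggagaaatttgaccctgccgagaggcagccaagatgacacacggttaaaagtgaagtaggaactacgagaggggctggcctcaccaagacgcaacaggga
Dpp4: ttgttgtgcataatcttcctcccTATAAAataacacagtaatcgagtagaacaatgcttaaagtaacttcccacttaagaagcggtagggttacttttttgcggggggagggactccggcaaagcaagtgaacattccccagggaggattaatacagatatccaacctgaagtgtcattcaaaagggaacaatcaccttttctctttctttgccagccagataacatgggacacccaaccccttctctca
Only the Dpp4 window among these 3 held the TATAAA letters, which 12.4% of the 32851 windows of this length hold. A GC box (GGGCGG, 32.7% of windows) and a CCAAT box (CCAAT, 33.8% of windows), both searched on either strand, were in none of the 3. The GC content was 54.4% for Pdgfra, 46.4% for Cd34 and 43.6% for Dpp4, beside a median of 52.4% over all windows. These matches describe letters and say nothing of binding.

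The expression of each gene was read as FPKM, fragments scaled to transcript length and library depth, so levels can be set side by side between genes. The libraries held roughly 10.0M to 19.5M fragments (M, 10 to the power of 6), estimated from the smallest steps of the FPKM values. FPKM gives no counting error, and the precision therefore rests on the spread between libraries. ND replicate 1 went against its label. Markers of germ cells summed to 99170 FPKM in it (9.89% of its total), with Prm1, a sperm protamine, at 18708 FPKM. Markers of epididymis summed to 19849 FPKM and those of adipocytes to 7232 FPKM, beside 17680 to 70127 FPKM for adipocytes in the other 11 libraries. Germ cell markers also summed to 3037 FPKM in ND replicate 3 and 2086 FPKM in HFD replicate 1, and epididymis markers to 1279 FPKM in HFD replicate 2. Results against ND are given with and without ND replicate 1.

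**Figure D1:**
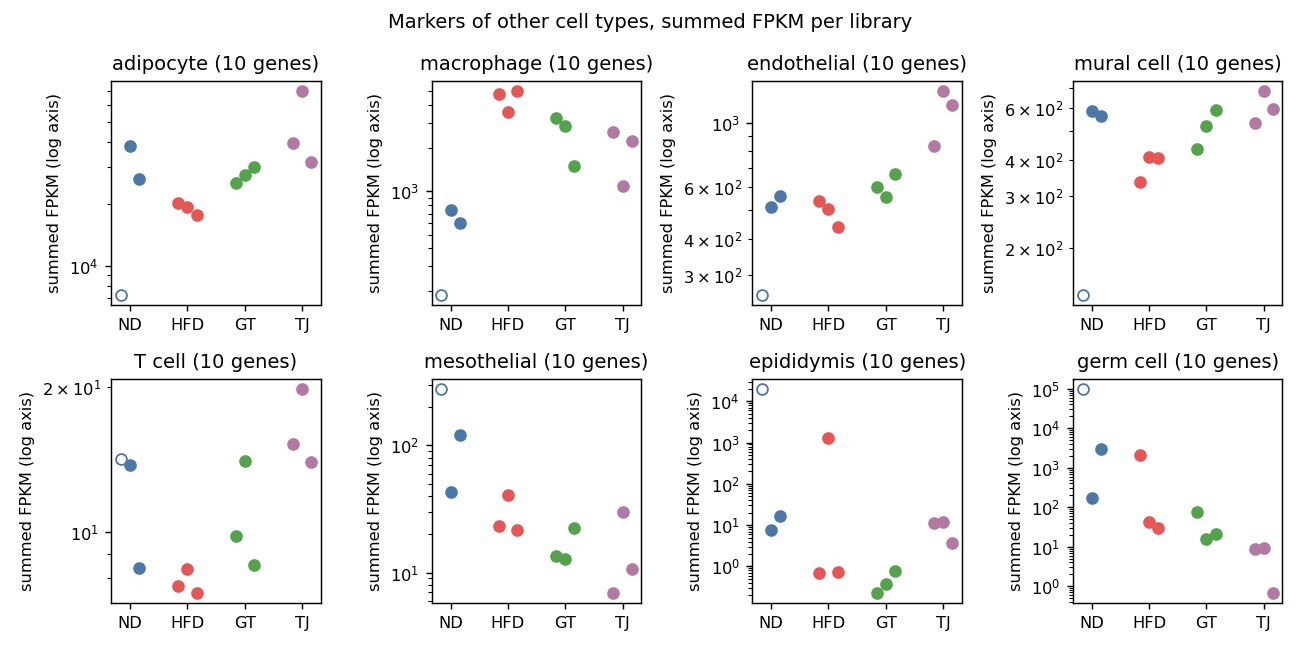
Summed FPKM (vertical, log axis) of 10 marker genes for each of 8 other cell types in each library, by group (horizontal), with ND replicate 1 as an open circle. ND replicate 1 stands at the top for germ cell and epididymis markers and at the bottom for adipocyte markers, and the 3 TJ libraries lie above the 3 HFD libraries for adipocyte, endothelial, mural cell and T cell markers and below them for macrophage markers.

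Ly6a was the most abundant member, with 125 to 445 FPKM in the libraries other than ND replicate 1. Pdgfra, Pdgfrb, Cd34 and Pi16 had group means between 7.33 and 30.5 FPKM, and Thy1 and Fap between 3.82 and 12.0 FPKM. Dpp4 was lower, with group means of 2.83 to 4.01 FPKM. Dlk1, known as preadipocyte factor 1, had group means of 0.260 to 0.909 FPKM. Testing required 1 FPKM or more on average in the libraries compared, which 8 members passed in all 4 comparisons and Dlk1 in none.

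**Figure D2:**
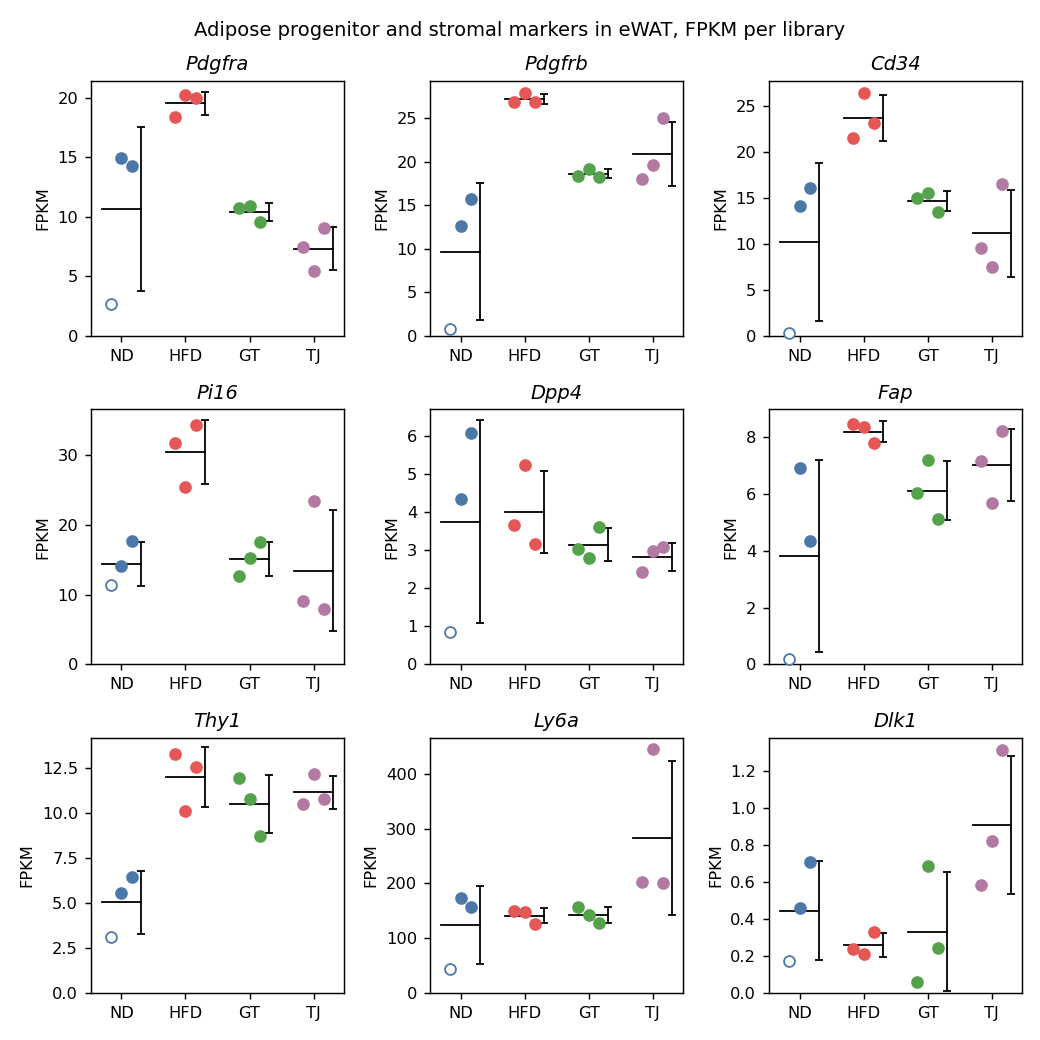
FPKM (vertical, linear from 0) of each member in each library, by group (horizontal), with the group mean as a line, the SD (n = 3) as the bar beside it and ND replicate 1 as an open circle. Pdgfra, Cd34 and Pi16 are highest in the HFD group, Ly6a and Dlk1 are highest in the TJ group, and ND replicate 1 is the lowest ND library for all 9 genes.

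The comparison of the HFD group with the ND group asked how the diet alone bears on these genes. Without ND replicate 1, limma called 4 of the 8 tested members upregulated in the HFD group, namely Pdgfrb, Pi16, Thy1 and Cd34, beside 11.0% of the 13661 tested genes called in that direction (15.4% in either). With all 3 ND libraries 0 of the 8 were called in limma, beside 1.77% of 14430 genes (1.73% upregulated). Pi16 and Thy1 alone had an unadjusted limma p-value under 0.05 there, beside 11.6% of those genes. To be called, a gene needed an adjusted p-value (Benjamini-Hochberg) under 0.05 together with a 1.5-fold difference or more on log2(FPKM + 1). The replicate numbers of these groups were taken to pair them, although no source names what a number shares. The deviations of ND replicate 2 and HFD replicate 3 correlated most (0.626), so the pairing is uncertain. With the number as a block and without ND replicate 1, 0 of the 8 members were called, beside 3.67% of 13661 genes (3.18% upregulated). In that limma fit 4 members had an unadjusted p-value under 0.05, beside 20.6% of those genes.

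Among the receptors, Pdgfrb measured 26.8, 27.9 and 26.9 FPKM in the HFD libraries and 12.6 and 15.7 FPKM in ND replicates 2 and 3. ND replicate 1 had 0.766 FPKM. Every HFD library thus lay above every ND library. The log2 fold change was 0.90 without that library (SE 0.14, limma adjusted p = 0.0138) and 1.94 with it (SE 0.88, limma adjusted p = 0.477). With the block in addition, the adjusted p was 0.125. Pdgfra, its sister receptor, measured 18.4, 20.2 and 20.0 FPKM in the HFD group and 14.9 and 14.3 FPKM in ND replicates 2 and 3, with 2.69 FPKM in ND replicate 1. These groups did not overlap either, but Pdgfra did not pass the test, at 0.39 without ND replicate 1 (SE 0.12, limma adjusted p = 0.0879) and 1.09 with it (SE 0.62, limma adjusted p = 0.494).

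Pi16, a peptidase inhibitor that marks the interstitial progenitors, was the member in which ND replicate 1 stood closest to the other ND libraries. It measured 31.7, 25.4 and 34.3 FPKM in the HFD group and 11.4, 14.0 and 17.6 FPKM in the ND group. The groups did not overlap with or without ND replicate 1. The log2 fold change was 0.90 without it (SE 0.18, limma adjusted p = 0.0314) and 1.04 with it (SE 0.29, limma adjusted p = 0.209). Dpp4, the other interstitial marker, a membrane protease that cleaves incretins, measured 3.65, 5.23 and 3.17 FPKM in the HFD group and 0.841, 4.33 and 6.08 FPKM in the ND group. These groups overlapped, and the log2 fold change was 0.27 with ND replicate 1 and -0.31 without it (limma adjusted p = 0.808 and 0.480).

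Among the sorting antigens, Cd34 measured 21.5, 26.4 and 23.2 FPKM in the HFD group and 0.313, 14.1 and 16.1 FPKM in the ND group, a log2 fold change of 0.62 without ND replicate 1 (SE 0.14, limma adjusted p = 0.0457). Thy1 measured 13.3, 10.1 and 12.6 FPKM in the HFD group and 3.08, 5.56 and 6.47 FPKM in the ND group, a log2 fold change of 0.88 without it (SE 0.17, limma adjusted p = 0.0284). With it, the values were 1.82 for Cd34 and 1.14 for Thy1 (limma adjusted p = 0.494 and 0.245). Both genes were higher in every HFD library than in any ND library. Ly6a measured 149, 148 and 125 FPKM in the HFD group and 43.0, 173 and 158 FPKM in the ND group. Its 3 HFD values lay below ND replicates 2 and 3 and above ND replicate 1, and its log2 fold change was -0.23 without that library and 0.41 with it (limma adjusted p = 0.306 and 0.715).

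Fap, a protease of activated fibroblasts, measured 8.46, 8.35 and 7.79 FPKM in the HFD group and 0.207, 6.92 and 4.33 FPKM in the ND group (log2 fold change 0.50 without ND replicate 1, limma adjusted p = 0.187, and 1.31 with it, 0.494). Dlk1 measured 0.239, 0.211 and 0.330 FPKM in the HFD group and 0.170, 0.458 and 0.710 FPKM in the ND group, which overlapped (exact two-sided permutation test, p = 0.4). In all, 6 of the 9 members did not overlap between the groups and all 6 were higher in the HFD group, beside 20.5% of all tested genes (26.4% in either direction). Without ND replicate 1, 8 of the 9 did not overlap, 6 higher and Dlk1 and Ly6a lower in the HFD group. Of all tested genes, 47.2% did not overlap (28.0% higher and 19.2% lower). Here and below, such counts over 9 members include Dlk1, which was under the filter, whereas the shares cover tested genes only.

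The same question was put to gene lists of the surrounding biology. Without ND replicate 1, 10 of 17 fibroblast matrix genes were upregulated and 1 was downregulated in the HFD group. The median over this list was 1.11 on the log2 scale, where that of all tested genes was -0.02. They ran from Lum, which encodes lumican, at 2.19 to Gsn, which encodes gelsolin, at -0.99. Of 13 tested genes of interstitial progenitors, 4 were upregulated, with Pcolce2 highest at 1.72 and Efhd1 lowest at -1.02. Of 12 committed preadipocyte genes, 4 were upregulated and 1 was downregulated, from Mgp, which encodes matrix Gla protein, at 2.17 to Ebf2, a transcription factor of brown and beige adipocyte precursors, at -1.14. Of the 4 PDGF ligand genes, Pdgfb was upregulated at 0.86 and Pdgfd was lowest at -0.10. With ND replicate 1 included, these 4 lists held 1 call in all, Mgp at 2.20. Macrophage markers summed to 3563 to 5014 FPKM in the HFD group, to 745 and 597 FPKM in ND replicates 2 and 3 and to 189 FPKM in ND replicate 1. Without ND replicate 1, all 10 were upregulated, and with it 4 of 10. Of 10 adipocyte markers, 7 were downregulated and 1 was upregulated without ND replicate 1, and 1 was downregulated with it. Of 10 mesothelial markers, 5 were downregulated without ND replicate 1 (median log2 fold change -1.28), and 0 were called with it. With the replicate number as a block and without ND replicate 1, the calls fell to 4 of the fibroblast matrix genes, Lum, Col1a1, Col1a2 and Col3a1, 1 interstitial progenitor gene (Pcolce2), 1 committed preadipocyte gene (Mgp) and 0 PDGF ligand genes (limma, 1 with an unadjusted p-value under 0.05), all upregulated. In that fit 8 of 10 macrophage markers were upregulated, 2 adipocyte markers were downregulated and 1 was upregulated, and 0 mesothelial markers were called. The part of this in the members' values was not tested.

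**Figure D3:**
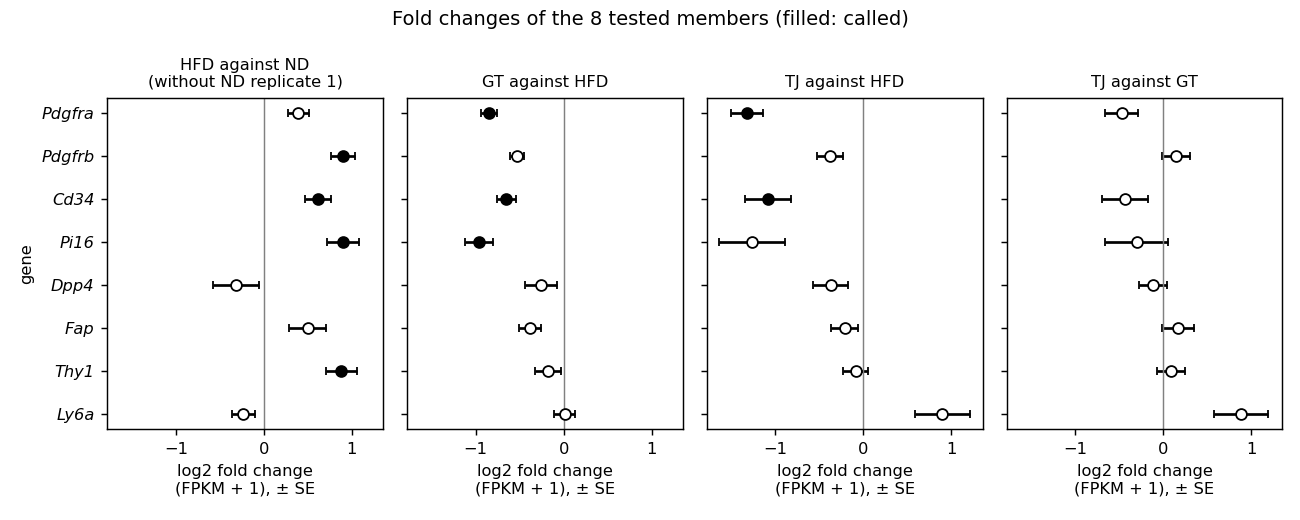
Log2 fold change on log2(FPKM + 1) (horizontal, ± SE) of the 8 tested members (vertical) in 4 comparisons, filled where the gene was called. HFD against ND is drawn without ND replicate 1, and with it 0 of the 8 were called. Pdgfra and Cd34 are filled to the left of 0 in GT against HFD and in TJ against HFD, Pi16 is filled in GT against HFD and open in TJ against HFD, and no gene is filled in TJ against GT.

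The comparison of the TJ group with the HFD group asked how the herbal formula bears on the tissue of mice on the HFD. Pdgfra and Cd34 were downregulated in the TJ group, 2 of the 8 tested members, and no member was upregulated. Of all 12807 tested genes, 18.5% were called, 11.1% downregulated and 7.41% upregulated, and nothing particular to the members was read from their count. The median log2 fold change was -0.38 over the 8 members and -0.14 over all tested genes, and the latter moved to -0.03 with median-of-ratios scaling.

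Pdgfra measured 18.4, 20.2 and 20.0 FPKM in the HFD libraries and 7.50, 5.44 and 9.05 FPKM in the TJ libraries. The highest TJ library was below 50% of the lowest HFD library. The log2 fold change was -1.32 (SE 0.18, limma adjusted p = 0.0196). Cd34 measured 21.5, 26.4 and 23.2 FPKM in the HFD group and 9.52, 7.46 and 16.5 FPKM in the TJ group, without overlap, and its log2 fold change was -1.09 (SE 0.26, limma adjusted p = 0.0372). The direction of both held in all 17 alternatives, from -1.47 to -0.90 for Pdgfra, called in 12 of them, and from -1.38 to -0.75 for Cd34, called in 9. Neither was called when any HFD library or TJ replicate 1 was left out (limma adjusted p = 0.0512 to 0.111 for Pdgfra and 0.0690 to 0.127 for Cd34), settings in which 0 of all tested genes were called.

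Pi16, near the threshold, measured 31.7, 25.4 and 34.3 FPKM in the HFD group and 9.13, 23.4 and 7.87 FPKM in the TJ group. All 3 TJ values were below all HFD values, with TJ replicate 2 just under the lowest of them. The log2 fold change was -1.27 and missed the threshold (SE 0.37, limma adjusted p = 0.0527). Without TJ replicate 2 it was -1.72 and was called (limma adjusted p = 0.00568), and in all it was called in 5 of 17 alternatives, the others being a pseudocount of 0.1, a mean of at least 5 FPKM, array weights and the fit of 11 libraries. Dpp4, at 2.42, 2.98 and 3.08 FPKM in the TJ group beside 3.65, 5.23 and 3.17 FPKM in the HFD group, was also lower in each TJ library, with a log2 fold change of -0.37 (SE 0.20, limma adjusted p = 0.193).

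Pdgfrb measured 18.0, 19.6 and 24.9 FPKM in the TJ group, below the 26.8 to 27.9 FPKM of the HFD group. Its log2 fold change of -0.38 did not pass (SE 0.15, limma adjusted p = 0.101). Fap measured 7.18, 5.67 and 8.21 FPKM and Thy1 10.5, 12.2 and 10.8 FPKM in the TJ group, within or overlapping their HFD ranges, with log2 fold changes of -0.21 and -0.09 (SE 0.15 and 0.14, limma adjusted p = 0.317 and 0.643). Scaling turned the sign of Thy1, to 0.029 with median-of-ratios scaling and 0.083 with quantile normalization, and of Fap, to 0.034 with the latter.

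Ly6a was the only tested member whose log2 fold change was above 0. It measured 203, 445 and 199.9 FPKM in the TJ libraries and 125 to 149 FPKM in the HFD group, so that the groups did not overlap. TJ replicate 2 was more than double the other TJ libraries. The log2 fold change was 0.90 (SE 0.32, limma adjusted p = 0.0788), and without TJ replicate 2 it was 0.52 (limma adjusted p = 0.0303) and below the 1.5-fold threshold. The neighbouring gene Ly6c1, also an endothelial and progenitor antigen, measured 178, 377 and 206 FPKM in the TJ group and 119 to 138 FPKM in the HFD group (log2 fold change 0.89, limma adjusted p = 0.0596). Ly6e, a family member on the other side of Ly6a, measured 128, 196 and 152 FPKM in the TJ group and 68.1 to 120 FPKM in the HFD group, without overlap (log2 fold change 0.79, limma adjusted p = 0.0624). The ratio of Ly6a to Ly6c1 was 1.05 to 1.14 in the HFD group and 0.969 to 1.18 in the TJ group. Ly6a, Ly6c1 and Ly6e are members of a family of similar genes, and how fragments shared between them were divided is uncertain.

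Dlk1 measured 0.586, 0.826 and 1.32 FPKM in the TJ group and 0.211 to 0.330 FPKM in the HFD group. The groups did not overlap, and the exact two-sided permutation test gave p = 0.1, the smallest that 3 libraries against 3 allow. In all, 7 of the 9 members did not overlap between TJ and HFD, 5 lower and 2 higher in the TJ group. The 2 higher ones were Ly6a and the untested Dlk1. Of all tested genes, 51.5% did not overlap (31.4% lower and 20.1% higher).

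Levels of other cell types differed between the same libraries. Of 10 endothelial markers, 5 were upregulated and 0 downregulated in the TJ group, their summed level being 831 to 1280 FPKM beside 439 to 537 FPKM in the HFD group. Pecam1, an adhesion protein of endothelium, measured 75.0 to 118 FPKM in the TJ group and 71.2 to 81.0 FPKM in the HFD group. The ratio of Cd34 to Pecam1, which like the other ratios was chosen after values had been seen, was 0.287 to 0.326 in the HFD group and 0.0794 to 0.140 in the TJ group. That of Ly6a to Pecam1 was 1.76 to 1.99 and 1.70 to 4.74, which overlapped. Of 4 tested T cell markers, 2 were upregulated. The 10 listed markers summed to 7.46 to 8.37 FPKM in the HFD group and 14.0 to 19.8 FPKM in the TJ group. The rest of the list was under the filter, where Cd28 alone had a lower mean in the TJ group (0.410 FPKM beside 0.650 FPKM in the HFD group). Of 10 mural cell markers, 2 were upregulated, and their sum was 336 to 407 FPKM in the HFD group and 533 to 684 FPKM in the TJ group. Macrophage markers were downregulated in 9 of 10 cases, with sums of 3563 to 5014 FPKM in the HFD group and 1089 to 2587 FPKM in the TJ group. Adipocyte markers were upregulated in 8 of 10, whereas Lep, which encodes leptin, was lowest at a log2 fold change of -0.96 and was not called. The part of these cells in the members' values was not tested.

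Some ratios of members within a library separated the groups and others overlapped. Those to Pdgfra share its level as their denominator, so that they are not independent of its fall. The ratio of Pdgfrb to Pdgfra was 1.34 to 1.46 in the HFD group, 1.71 to 1.91 in the GT group and 2.40 to 3.61 in the TJ group, with no overlap between these groups. The ratio of Fap to Pdgfra was 0.390 to 0.461 in the HFD group, 0.537 to 0.660 in the GT group and 0.907 to 1.04 in the TJ group. Thy1 to Pdgfra was 0.501 to 0.723, 0.916 to 1.11 and 1.19 to 2.24, again in that order without overlap. In ND replicates 2 and 3 the ratio of Pdgfrb to Pdgfra was 0.840 and 1.10 and that of Fap to Pdgfra 0.463 and 0.303. The ratio of Cd34 to Pdgfra varied less, from 1.16 to 1.31 in the HFD group, from 1.40 to 1.42 in the GT group and from 1.27 to 1.82 in the TJ group. Pi16 to Pdgfra overlapped between all 3 groups, at 1.26 to 1.73, 1.18 to 1.84 and 0.870 to 4.30. Dpp4 to Pdgfra was 0.159 to 0.259, 0.255 to 0.380 and 0.322 to 0.548, with overlap between HFD and GT and between GT and TJ, and Dpp4 to Fap overlapped between all 3. Dcn encodes decorin, a proteoglycan of fibroblasts, and the ratio of Pdgfra to Dcn was 0.0306 to 0.0331 in the HFD group, 0.0198 to 0.0234 in the GT group and 0.0109 to 0.0178 in the TJ group. Across all genes the fold change depended on transcript length. With that trend removed, the log2 fold change of TJ against HFD was -0.90 for Pdgfra and -0.94 for Cd34, which remained called, and -0.02 for Pdgfrb and -0.03 for Dpp4.

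**Figure D4:**
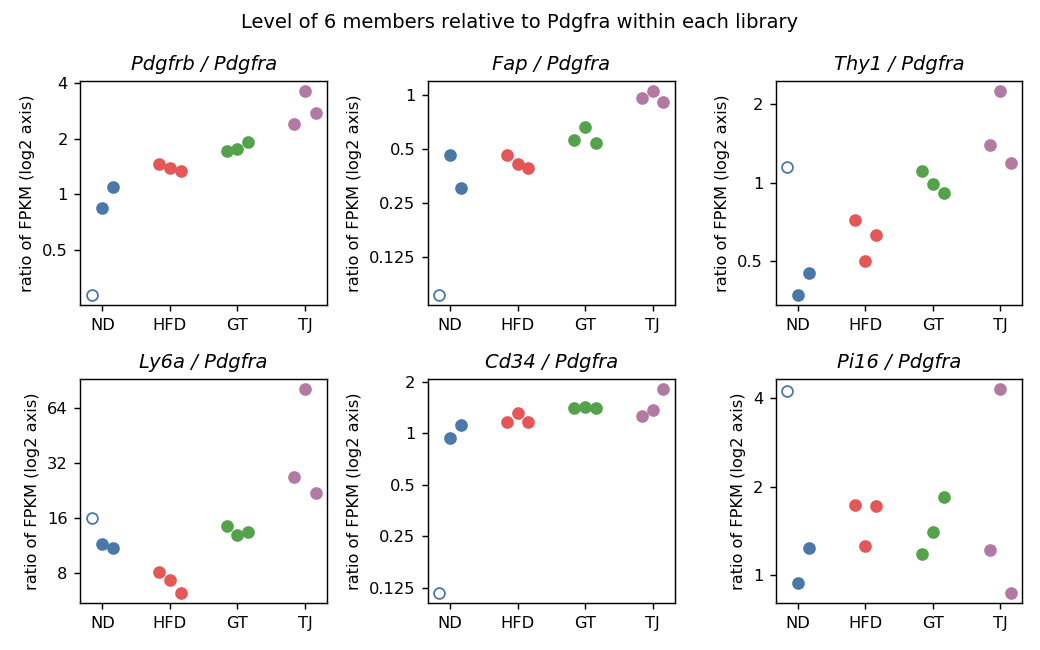
Ratio of the FPKM of 6 members to that of Pdgfra in the same library (vertical, log2 axis), by group (horizontal), with ND replicate 1 as an open circle. The ratios are not corrected for the trend with transcript length. For Pdgfrb, Fap, Thy1 and Ly6a the TJ libraries lie above the GT libraries and these above the HFD libraries, and for Cd34 and Pi16 the TJ and GT groups overlap.

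In the lists, 10 of 17 fibroblast matrix genes were downregulated in the TJ group and 0 upregulated. Their median log2 fold change was -0.96. Col3a1, which encodes a chain of collagen III, was lowest at -1.89 (limma adjusted p = 0.0276) and Gsn was highest at 0.73. Of 13 tested interstitial progenitor genes, 3 were downregulated and 0 upregulated, with a median of -0.43. These were Fn1, which encodes fibronectin, at -1.78, Cd248, which encodes endosialin, at -1.57 and Timp2, which encodes an inhibitor of metalloproteases, at -1.22, of which Cd248 and Timp2 were named after their values were seen. Ly6c1 was the highest. Of 12 committed preadipocyte genes, 2 were downregulated and 0 upregulated, with a median of -0.30. The lowest was Cxcl14, which encodes a chemokine, at -1.36, and the highest was Pparg, the nuclear receptor that drives adipogenesis, at 0.64 and not called. None of the 4 PDGF ligand genes was called in limma, with Pdgfb highest at 0.31 and Pdgfa lowest at -0.37. Of these genes 1 had an unadjusted limma p-value under 0.05, beside 41.4% of all tested genes.

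The comparison of the GT group with the HFD group asked the same of green tea extract. Pdgfra, Pi16 and Cd34 were downregulated in the GT group, 3 of the 8 tested members, beside 3.63% of the 12766 tested genes called (1.81% downregulated). The spread within the GT group was small. Pdgfra measured 10.7, 10.9 and 9.54 FPKM in the GT group, a log2 fold change of -0.85 (SE 0.09, limma adjusted p = 0.0300). Pi16 measured 12.6, 15.3 and 17.5 FPKM, a log2 fold change of -0.96 (SE 0.16, limma adjusted p = 0.0379). Cd34 measured 15.0, 15.6 and 13.5 FPKM, a log2 fold change of -0.65 (SE 0.11, limma adjusted p = 0.0379). For these 3 genes every GT library was below every HFD library.

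Pdgfrb measured 18.4, 19.2 and 18.2 FPKM in the GT group, also below every HFD library, and had a limma adjusted p of 0.0361, but its log2 fold change of -0.53 (SE 0.08) was short of 1.5-fold. Fap, at 6.02, 7.20 and 5.12 FPKM, did not overlap the HFD group either and did not pass (log2 fold change -0.38, SE 0.13, limma adjusted p = 0.112). Dpp4 measured 3.03, 2.78 and 3.62 FPKM, Thy1 11.9, 10.8 and 8.74 FPKM and Ly6a 157, 142 and 128 FPKM, all overlapping the HFD group, with log2 fold changes of -0.26, -0.18 and 0.01 (limma adjusted p = 0.377, 0.447 and 0.958). Ly6a was at -0.070 without HFD replicate 3 and at -0.061 without GT replicate 1. Dlk1, at 0.0612, 0.688 and 0.246 FPKM, overlapped too (exact two-sided permutation test, p = 0.8). In all, 5 of 9 members did not overlap, all lower in the GT group, beside 36.7% of all tested genes (24.4% lower and 12.3% higher).

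The 3 calls depended on single libraries and on the fit. Of 17 alternatives, Pdgfra was called in 10, Pi16 in 7 and Cd34 in 4. Cd34 fell short of 1.5-fold with median-of-ratios scaling (-0.54), quantile normalization (-0.53) and the length trend removed (-0.52). None of the 3 was called without HFD replicate 2 or 3 or GT replicate 2 or 3, where 4 to 7 of all tested genes were called, and Pdgfra alone was called without HFD replicate 1, at a limma adjusted p of 0.0460. The log2 fold changes kept their sign in all 17 alternatives, from -0.90 to -0.70 for Pdgfra, from -1.08 to -0.83 for Pi16 and from -0.71 to -0.52 for Cd34. Macrophage markers summed to 1497 to 3283 FPKM in the GT group, with 0 of 10 called in limma (10 with an unadjusted p-value under 0.05), adipocyte markers to 25273 to 30241 FPKM, with 4 of 10 upregulated, and endothelial markers to 557 to 665 FPKM, with 0 of 10 called (3 with such a p-value). Of all tested genes, 29.3% had such a p-value. The part of these cells in the members' values was not tested.

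In the lists, Cd248, Fn1 and Timp2 were also the interstitial progenitor genes downregulated in the GT group, 3 of 13, at -0.96, -0.88 and -0.67 beside -1.57, -1.78 and -1.22 in the TJ group. The HFD libraries of both comparisons are the same, so this likeness is not independent. Of 12 committed preadipocyte genes, Cxcl14 was downregulated at -1.41, Mgp at -1.35 and Zfp423, which encodes a factor of preadipocyte commitment, was upregulated at 1.08. Of 17 fibroblast matrix genes 3 were downregulated, with a median of -0.56, from Fbln1, which encodes fibulin 1, at -1.11 to Gsn at 0.53. Of the 4 PDGF ligand genes none was called in limma, with Pdgfa highest at 0.37 and Pdgfb lowest at -0.27. Among them 2 had an unadjusted limma p-value under 0.05, beside 29.3% of all tested genes.

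The direct comparison of the TJ group with the GT group tested whether the additives differed. None of the 8 tested members was called in limma, beside 0.148% of the 12187 tested genes. Pdgfra and Ly6a had an unadjusted limma p-value under 0.05, beside 24.6% of those genes, so their number was near that share. Pdgfra was lower in every TJ library than in any GT library, at a log2 fold change of -0.47 (SE 0.19, limma adjusted p = 0.181). Ly6a was higher in every TJ library, at 0.89 (SE 0.31, limma adjusted p = 0.158). This value ran from 0.41 to 1.08 over 17 alternatives, and TJ replicate 2 stood at 445 FPKM beside 203 and 199.9 FPKM. Cd34 and Pi16 overlapped, at -0.44 and -0.30 (SE 0.26 and 0.36, limma adjusted p = 0.302 and 0.594). Over 17 alternatives Cd34 ran from -0.73 to -0.21 and Pi16 from -0.76 to -0.03. Pdgfrb, Dpp4, Thy1 and Fap had log2 fold changes from -0.11 to 0.17 with SE of 0.16 to 0.18. For Dlk1 the exact two-sided permutation test gave p = 0.2. Thus 1 member of 9 lay higher and 1 lower without overlap, beside 19.5% and 14.9% of all tested genes (34.4% in either direction). The calls of Pi16 in the GT group and its miss in the TJ group are thus not shown to differ.

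Ordered by group mean, Pdgfra ran from HFD (19.5 ± 0.99 FPKM, SD, n = 3) over ND (10.6 ± 6.90) and GT (10.4 ± 0.75) to TJ (7.33 ± 1.81), where every HFD library lay above all others. With ND replicate 1 left aside, no neighbours in this order overlapped, but TJ against GT did not pass the test and GT was not tested against ND. Cd34 ran from HFD (23.7 ± 2.48) over GT (14.7 ± 1.08) and TJ (11.2 ± 4.73) to ND (10.2 ± 8.58), but ND replicates 2 and 3 averaged 15.1 FPKM, above GT and TJ, and overlapped both. Pi16 ran from HFD (30.5 ± 4.57) over GT (15.1 ± 2.46) and ND (14.4 ± 3.13) to TJ (13.5 ± 8.61), of which the last 3 overlapped, and ND averaged 15.8 FPKM without ND replicate 1, above GT. Thy1 ran from HFD (12.0 ± 1.66) over TJ (11.2 ± 0.91) to GT (10.5 ± 1.62), which overlapped, and was lower in ND (5.04 ± 1.75), which did not overlap them. Pdgfrb ran from HFD (27.2 ± 0.59) over TJ (20.9 ± 3.64) and GT (18.6 ± 0.51), which overlapped, to ND (9.69 ± 7.89). Ly6a was highest in TJ (283 ± 141), with GT (142 ± 14.4), HFD (141 ± 13.5) and ND (125 ± 71.0) overlapping. ND replicates 2 and 3 averaged 165 FPKM and lay between TJ and GT with no overlap with any group. Fap ran from HFD (8.20 ± 0.36) over TJ (7.02 ± 1.28) and GT (6.11 ± 1.04) to ND (3.82 ± 3.39), Dpp4 from HFD (4.01 ± 1.08) over ND (3.75 ± 2.67) and GT (3.14 ± 0.43) to TJ (2.83 ± 0.36), and Dlk1 from TJ (0.909 ± 0.37) over ND (0.446 ± 0.27) and GT (0.332 ± 0.32) to HFD (0.260 ± 0.063). Neighbours in each of these 3 orders overlapped. Dpp4 averaged 5.20 FPKM in ND replicates 2 and 3, above HFD, which it overlapped, and above GT, which it did not.

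Likeness to other genes was described with Pearson's r of log2(FPKM + 1) over the libraries, with no test, since all genes share the same libraries, their depth and ND replicate 1. Over 12 libraries the 3 genes most like Pdgfra were Lama2, Dnaja2 and Cyp1b1 (r = 0.988, 0.984 and 0.978), and over the 11 libraries without ND replicate 1 they were the same 3 (r = 0.984 for Lama2). Over the 9 libraries of the HFD, GT and TJ groups they were others, Eps15l1, Sfmbt1 and Gpc6 (r = 0.995, 0.995 and 0.993). For the other members the leading gene over 12 libraries was Tgfbr2 for Cd34 (0.995), Icam1 for Pdgfrb (0.991), Ikbip for Fap (0.993), Emilin1 for Thy1 (0.988), Cul1 for Dpp4 (0.974), Nr2f1 for Ly6a (0.973) and Fbln1 for Pi16 (0.905). Over 11 libraries it was a different gene for each of these 7, Mbtps2, Fmnl3, Sars, Edem2, F2rl1, Ilkap and Lrrn4cl in the same order of members. Among the members, Pdgfra and Cd34 were most alike over 11 libraries (r = 0.916, Spearman's rho = 0.809). Pdgfra and Ly6a had r = 0.202 over 12 libraries and -0.722 over 11, whereas Spearman's rho was negative in both (-0.259 and -0.636). Dpp4 and Fap, neighbours on chromosome 2, had r = 0.679 over 12, -0.303 over 11 and 0.256 over the 9 libraries of the HFD, GT and TJ groups, and Gcg, which lies between them, was listed at 0 in all 12 libraries.

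Csf1r, the receptor of macrophage colony stimulating factor, starts 15536 bases beyond the end of Pdgfrb (ENSMUSG00000024620, chr18:61045150-61085061, plus strand). It was upregulated in the HFD group without ND replicate 1 (log2 fold change 2.20, limma adjusted p = 0.00105) but not called with it (3.10, SE 0.78, limma adjusted p = 0.159), and it was downregulated in the TJ group (-1.50, limma adjusted p = 0.0372), where Pdgfrb was at -0.38. Kit, 376700 bases beyond Pdgfra, was not called in any comparison, at -0.46 in TJ against HFD and -0.42 in GT against HFD (limma adjusted p = 0.192 and 0.0923).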

How the data were processed

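Total RNA of mouse eWAT was sequenced as 12 paired-end mRNA libraries. The authors mapped the reads with STAR, listed as 2.4.0 in the submitters' processing notes, and the deposited values are FPKM computed by the authors with Cufflinks 2.1.1, with noncoding regions masked and corrections for multireads and fragment bias. Their methods name a human genome, whereas all 23474 identifiers are mouse. GENCODE mouse release 21 (GRCm38) named 22671 of them. The study's methods describe separate mice for the HFD and TJ groups, and the labels state nothing on this for ND and GT, where p-values measure only the spread between libraries.

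Groups were compared with limma 3.58.1 (R 4.3.3, lmFit, eBayes with trend) on log2(FPKM + 1), with the 6 libraries of each comparison, testing genes that averaged 1 FPKM or more, and p-values were adjusted over all of them (Benjamini-Hochberg). Calls needed an adjusted p under 0.05 with a 1.5-fold difference or more. No counts were used. Tables and figures were made with python 3.11.15, pandas 2.3.3, numpy 2.4.6 and matplotlib 3.10.9. The fit was tested on simulated data.

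The members, gene lists and tests were chosen with earlier results of these data known. Named genes were the members, the highest and lowest gene of each list, the genes most like a member and its chromosomal neighbours. Outside this rule, Pecam1, Dcn, Prm1, Timp2, Cd28, Col1a1 and Col1a2 were named after their values were seen. Alternatives changed the pseudocount, filter, scaling, libraries, block, trend and weights. The length trend, the fit of 11 libraries, the block without ND replicate 1 and the likeness over 11 libraries were added after seeing the data. Same-numbered libraries of the HFD and ND groups deviated together (correlations over genes of 0.547, 0.342 and 0.122), and these were taken as pairs, although ND replicate 2 and HFD replicate 3 correlated more (0.626) and no source names what a number shares.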

Additional observations from a re-analysis of the deposited data

How the results depend on the processing

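The number of members called depended on the libraries and the fit. For HFD against ND it was 0 in the main setting, 1 with all 12 libraries in the fit, 4 with array weights, 2 with the 11 libraries other than ND replicate 1 in the fit, and 0 to 4 with a library left out, the 4 being without ND replicate 1. Of all tested genes, these 4 fits called 7.84%, 42.0%, 19.4% and 15.4%. With the replicate block it was 0, beside 0 of all tested genes. In that limma fit 3 members had an unadjusted p-value under 0.05, beside 15.5% of all tested genes. Array weights gave -0.53 for Dpp4 and -0.21 for Ly6a. Without ND replicate 1, Dpp4 was at -0.31 and Ly6a at -0.23, in the fit of 11 libraries as well, and with the replicate block in addition both were at -0.27. With a library left out Dpp4 ran up to 0.66 and Ly6a up to 0.76, and Ly6a was at 1.27 with the length trend removed, beside 0.41 in the main setting. For TJ against HFD the number was 2 in the main setting, 1 with no filter, 0 with all 12 libraries in the fit, 1 with the replicate block, where same-numbered libraries did not deviate together, 4 in the fit of 11 libraries and 0 to 3 with a library left out. It was 3 with a pseudocount of 0.1 and with a mean of at least 5 FPKM. Of all tested genes, the main setting called 18.5%, and these called 1.88% with no filter, 1 gene with all 12 libraries, 9.35% with the block, 23.4% in the fit of 11 libraries, 19.8% with the pseudocount and 23.1% with the higher mean. Pi16 was the addition in these last 3 and without TJ replicate 2, and Ly6a in the fit of 11 libraries. Thy1 was at 0.029 with median-of-ratios scaling and 0.083 with quantile normalization, and Fap at 0.034 with the latter. For GT against HFD it was 3 in the main setting, 0 with no filter, 0 with all 12 libraries, 0 with the replicate block, 1 without the eBayes trend, 1 in the fit of 11 libraries and 0 to 3 with a library left out. Of all tested genes, 5, 1 and 5 genes, 0.525% and 1.09% were called in the first 5 of these. It was 2 with median-of-ratios scaling, quantile normalization and the length trend removed, where Cd34 was not called. With a library left out Ly6a ran from -0.070 (without HFD replicate 3) to 0.084, and it was -0.061 without GT replicate 1. For TJ against GT it was 0 in the main setting and with the replicate block, 2 with array weights (Pi16 and Cd34, both lower in TJ, beside 13.6% of all tested genes), and 0 to 0 with a library left out. There Pdgfrb was at -0.073 and Thy1 at -0.027 with array weights, Dpp4 at 0.083 and Thy1 at -0.13 with the length trend removed, and Thy1 ran from -0.026 (without GT replicate 3) to 0.18 with a library left out. The cause of these shifts was not tested. The split of all calls was 949 up and 1417 down for TJ against HFD and 1229 and 1177 with median-of-ratios scaling, and 233 and 231 for GT against HFD and 367 and 154 with that scaling. Depth is only estimated, and a level as low as that of Dlk1 rests on few fragments.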
